A study of Homo sapiens with 8 samples.

Results

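H/ACA small nucleolar RNAs (gene names starting with SNORA) and small Cajal body RNAs (SCARNA) were read on 8 two-colour Agilent arrays, each of which compared a treated human cancer cell line with mock cells of the same line. The genes were chosen by name among the spots that are not controls, and the group was chosen with the Cy5 over Cy3 ratios of its genes already known, so those ratios are given as a description with no test. The array held 118 such genes, 97 SNORA and 21 SCARNA, among 43317 gene names. They were read by 145 probes of 60 bases, and each gene was represented by its brightest probe. On each array mock RNA carried Cy3 and treated RNA carried Cy5, with no dye swap. Each treatment had 1 array, so no p-value was computed, and a single array cannot tell a treatment effect from the variation between cultures.

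PC3 (prostate cancer) was treated with bisamide, a small-molecule ligand of the protein pirin, for 24 h on one array and for 48 h on another, and was transfected with miR-125b-1-3p on a further array. C4-2 (prostate cancer) was transfected with miR-199-3p, 786-O (renal cancer) with miR-532-5p or miR-532-3p, and T24 (bladder cancer) with miR-140-5p or miR-140-3p. The labels also place bisamide under transfection, and they describe the mock cells as not transfected, so the transfection itself is part of each miRNA comparison. The deposited names give the same mock to both arrays of 786-O and to both arrays of T24, and these pairs were treated as repeat readings of 1 mock RNA.

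H/ACA RNAs fold into hairpins followed by a hinge and by an ACA trinucleotide close to the 3′ end. They pair with ribosomal RNA and guide dyskerin, the enzyme of the particle, to the uridines that become pseudouridine. Small Cajal body RNAs do the same work on spliceosomal RNAs, and they stay in Cajal bodies through a motif that WRAP53 binds. Some have H/ACA boxes, some have the C/D boxes that guide methylation of the ribose, and some have both. Most of these RNAs lie in introns of host genes and are cut out of the spliced intron. The mature forms have no poly(A) tail, whereas the labelling kit named in the labels starts from poly(A). Whether the probes read mature RNA, precursors or extended forms was not tested.

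The probes of the genes on which the results turn are shown 5′ to 3′, to let a reader see which stretch of each RNA was measured. Capitals mark an ACA that sits 3 bases before the 3′ end of the RNA, the place of the H/ACA box. Positions are those of GRCh37 in the deposited files.
SCARNA14: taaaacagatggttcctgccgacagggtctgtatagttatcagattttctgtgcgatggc
SCARNA13: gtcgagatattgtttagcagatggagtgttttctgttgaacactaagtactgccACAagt
SCARNA16: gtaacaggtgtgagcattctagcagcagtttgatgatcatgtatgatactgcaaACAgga
SCARNA8: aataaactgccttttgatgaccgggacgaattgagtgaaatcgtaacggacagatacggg
SCARNA20: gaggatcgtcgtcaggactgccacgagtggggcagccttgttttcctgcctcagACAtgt
SCARNA18: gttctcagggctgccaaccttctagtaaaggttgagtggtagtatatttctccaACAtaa
SCARNA11: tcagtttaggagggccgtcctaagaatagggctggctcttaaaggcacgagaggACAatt
SCARNA22: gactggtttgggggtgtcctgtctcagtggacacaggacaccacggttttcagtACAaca
SCARNA7: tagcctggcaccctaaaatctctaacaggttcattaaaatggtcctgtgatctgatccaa
SNORA48: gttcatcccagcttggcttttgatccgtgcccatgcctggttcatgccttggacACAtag
SNORA67: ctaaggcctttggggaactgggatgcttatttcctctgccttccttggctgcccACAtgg
SNORA62: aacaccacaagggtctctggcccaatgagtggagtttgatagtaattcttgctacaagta
SNORA13: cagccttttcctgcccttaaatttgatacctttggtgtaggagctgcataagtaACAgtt
The SCARNA14 probe lies at chr15:66639555-66639614 on the minus strand, and that of SCARNA13 at chr14:95999692-95999751 on the minus strand. The SCARNA22 probe lies at chr4:1976428-1976487 on the plus strand. SNORA48 and SNORA67 were read at chr17:7478106-7478165 and chr17:7481350-7481409, both on the plus strand of chromosome 17, and SNORA62 at chr3:39452639-39452698 on the plus strand. SNORA62 reaches the end of its RNA but has no ACA at that exact place. SCARNA7 is of the C/D type, and its probe reaches the 3′ end of the RNA without an ACA at that place. The probe of SCARNA14 stops 11 bases short of the end of the RNA and that of SCARNA8 stops 10 bases short, so the box is outside both. Of 57 probes that end exactly at the 3′ end of a SNORA or an H/ACA SCARNA, 48 had ACA 3 bases before the end and 9 did not. Among all 58201 probes of the array, 2.14% had ACA there. The search covered only the strand of the probe and only that place, and a missing ACA says nothing of the RNA beyond those letters.

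The transfected miRNAs had different seeds (bases 2 to 8, in capitals). The sequences are RefSeq's mature forms and are shown for the strand pair of miR-140 and for miR-125b-1-3p, where the largest positive values of the group fell.
miR-125b-1-3p: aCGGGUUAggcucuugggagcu
miR-140-3p: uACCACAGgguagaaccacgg
miR-140-5p: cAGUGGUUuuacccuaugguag

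The genes were read on most arrays. A gene counted as detected where both channels flagged its probe as well above background. This held for 97 to 113 of the 118 genes, or 82.2% to 95.8%, beside 35.6% to 44.4% of all genes. Of the SNORA genes 69 were detected in both channels of all 8 arrays, and of the SCARNA genes 16. In all 113 genes were detected on 1 array or more, and 2 were only ever detected in 1 channel. SNORA29, SNORA35 and SNORA76A were not well above background in any channel. At the edge of this filter, on the miR-199-3p array, SCARNA7 counted as detected with a raw Cy3 signal of 26.5 and SNORA5A did not with 26.3. Signals were low for many of the genes, and the median raw Cy3 signal over all probes was between 22.7 and 24.9. Some genes were read in 1 channel of an array alone, 55 times in Cy5 and 3 times in Cy3, and no bound on those ratios exceeded 0.25 in size on the log2 scale. Between repeat spots of a probe the log2 ratio varied by a median SD of 0.0389 to 0.0527, which is the only repeat measurement within an array. The labels of the lines were checked in the mock channel. KLK3, a prostate gene, read 13592 in C4-2, and in PC3, 786-O and T24 it stayed at background with 21.4 to 22.6. CA9 in 786-O and UPK2, KRT5 and GATA3 in T24 were not well above background.

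SCARNA genes of the H/ACA type were high on the arrays of miR-125b-1-3p (PC3) and miR-140-3p (T24), and lower on the remaining 6. Their median log2 ratio was 0.86 over the 12 detected with miR-125b-1-3p and 0.97 over the 11 detected with miR-140-3p. On the remaining arrays it lay between -0.14, with miR-532-3p, and 0.25, with miR-532-5p. It was 0.13 after 24 h and -0.095 after 48 h of bisamide, -0.045 for miR-199-3p and 0.18 for miR-140-5p. The median of all genes lay between -0.00017 and 0.017 on the 8 arrays.

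**Figure D1:**
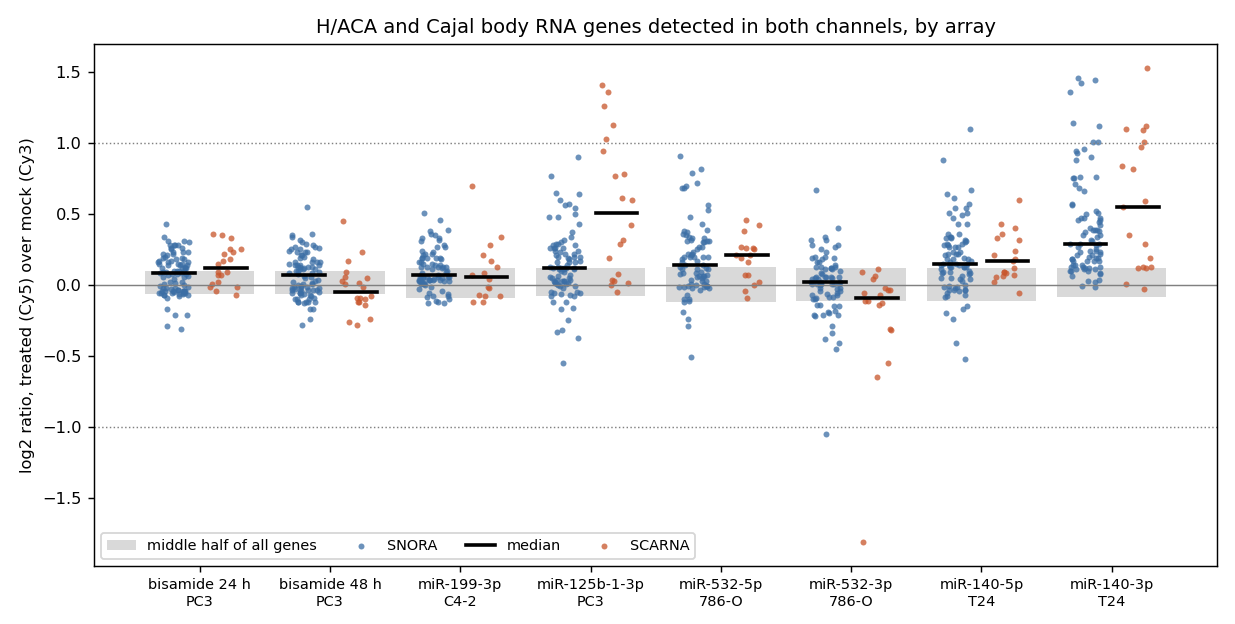
Log2 ratio of treated over mock RNA (y axis) for every SNORA (blue) and SCARNA (orange) gene detected in both channels of an array (x axis); 1 point is 1 gene, black bars are medians and grey bands run between the quartiles of all genes. The SCARNA medians stand at 0.51 for miR-125b-1-3p and 0.55 for miR-140-3p, and the SNORA median reaches 0.29 with miR-140-3p.

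Past a log2 ratio of 1.0 in size, with the sign kept, stood 21 readings of 18 genes. With miR-140-3p 13 of 106 genes were above 1.0, beside 0.0913% of all genes detected there, and none was below -1.0, beside 0.0856%. Only 16 genes of the whole array were above 1.0 in that comparison, so 13 of these 16 belonged to the group, and SCARNA14 was the highest of all 17533 genes. By the scanner's own ratio 28 were above 1.0, beside 0.302% of all genes, and with median centring in place of loess 35, beside 6.94%. With miR-125b-1-3p 5 of 109 genes were above 1.0, beside 0.112%, and none was below -1.0, beside 0.0642%. All 5 were SCARNA genes, and SCARNA13 ranked 3 of 18693. Only 2 of them had a raw Cy3 signal of 100 or more, beside 0.128% of all genes that bright, and 15 genes were above 1.0 with median centring, beside 4.27%. With miR-532-3p none of 97 genes was above 1.0, beside 0.0907%, and SCARNA22 and SNORA67 were below -1.0, beside 0.55%. With miR-140-5p 1 of 105 was above 1.0, beside 0.119%, and none was below, beside 0.323%. No gene of the group was past 1.0 with bisamide, where all genes gave 0.182% above and 0.0156% below after 24 h and 0.0946% above and 0.021% below after 48 h. The same held for miR-199-3p, where 0.115% of all genes were above and 0.536% below, and for miR-532-5p, with 0.357% above and 0.447% below. Since the group was chosen with these ratios known, these shares describe the arrays and are no test.

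The genes above 1.0 on both arrays were SCARNA8, SCARNA13 and SCARNA14. SCARNA13, an H/ACA guide RNA within SNHG10, gave 0.25 and -0.26 with bisamide for 24 h and 48 h, -0.08 with miR-199-3p in C4-2, 1.41 with miR-125b-1-3p, 0.26 and -0.14 with the 5p and 3p strands of miR-532, and 0.43 and 1.10 with those of miR-140. SCARNA14, which lies in TIPIN, gave 0.35, -0.10, 1.26, 0.068, -0.31, 0.091 and 1.53 on the same arrays in the same order, without the miR-199-3p array, where mock RNA was not well above background. SCARNA8, which lies in HAUS6, gave 0.008, -0.24, -0.12, 1.13, 0.21, -0.11, 0.40 and 1.12. In each of the 3 genes the readings with miR-125b-1-3p and miR-140-3p lay above those of every other array on which the gene was detected. In raw signal SCARNA14 read 70.4 in mock and 323 in treated PC3 RNA with miR-125b-1-3p, and 92 and 520 in T24 with miR-140-3p. With miR-140-5p, set against the same T24 mock, it read 97.6 and 151.

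Mock RNA itself was lower for most H/ACA SCARNA genes on the miR-125b-1-3p array than on the other PC3 arrays, a comparison chosen after the data were seen. After quantile normalization its log2 mock signal, less the mean of the mocks of both bisamide arrays, had a median of -0.25 over 12 H/ACA SCARNA genes, -0.084 over 89 SNORA genes and -0.016 over all genes. The miR-125b-1-3p mock was the lowest of the 3 for 10 of the 12 and for 60 of the 89 SNORA genes, beside 43.1% of all genes. The difference was -1.03 for SCARNA22, -0.88 for SCARNA13, -0.55 for SCARNA16, -0.52 for SCARNA20, -0.46 for SCARNA14 and -0.26 for SCARNA8, and it was -0.071 for SCARNA11. SCARNA13 read 101 in raw mock signal there against 248 and 207 on the bisamide arrays, and its treated signal of 486 did not exceed the 509 after bisamide for 24 h. Treated signal did not exceed it either for SCARNA20 (240 against 250) and SCARNA22 (1733 against 2361). It was higher for SCARNA16 (675 against 515), SCARNA14 (323 against 273) and SCARNA11 (176 against 83.6). The part of the mock in the high ratios with miR-125b-1-3p was not tested.

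Further H/ACA SCARNA genes were also highest on these arrays. SCARNA16, which lies in SNHG20, gave 0.23, 0.17, 0.13, 1.36, 0.42, -0.55, 0.33 and 0.97 in the order above. SCARNA20, which lies in USP32, gave 0.18, -0.14, -0.013, 0.94, 0.26, -0.65, 0.083 and 1.09. SCARNA18, from TMEM167A, gave 0.22, -0.081, 0.21, 0.78, 0.38, -0.32, 0.60 and 1.01. These were each highest with miR-125b-1-3p or miR-140-3p and lowest with miR-532-3p. SCARNA11, from CHD4, gave 0.17, -0.016, -0.023, 1.03, 0.25, -0.13, 0.18 and 0.82. SCARNA23, from POLA1, gave 0.067, -0.094, -0.068, 0.77, 0.018, -0.11, 0.32 and 0.84. Not every H/ACA member was high. SCARNA4, from KHDC4, read 0.32 for miR-125b-1-3p and 0.29 for miR-140-3p, and SCARNA3, from COP1, read 0.028 and 0.12. SCARNA22 read 0.61 and 0.13, with bright raw Cy3 signals of 658 and 965. The probe of SCARNA3 had raw Cy3 signals of 27.2 to 53 and that of SCARNA4 of 26.9 to 37.2, close to background. Some of the high genes were about as dim. With miR-125b-1-3p raw Cy3 was 44.7 for SCARNA11 and 46.2 for SCARNA23, beside 51.4 for SCARNA3. With miR-140-3p it was 33.9 for SCARNA11 and 51 for SCARNA23, beside 41.5 for SCARNA3. SCARNA1 was detected in both channels of 3 arrays only, among them that of miR-125b-1-3p at 0.038, and SCARNA15 on none.

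SCARNA genes with C/D boxes were lower on those arrays. SCARNA7, a C/D guide within KPNA4, stayed between 0.0091 and 0.19 over the 8 arrays. SCARNA2, an independently transcribed C/D guide, was detected in both channels of 6 arrays and lay there between -0.094 and 0.012. SCARNA17, a C/D guide within SNHG22, followed another order, with 0.33 and 0.45 with bisamide, 0.70 with miR-199-3p in C4-2, 0.60 with miR-125b-1-3p, -0.0033 and -0.034 with the 5p and 3p strands of miR-532, and 0.21 and 0.35 with those of miR-140. It was the highest gene of the group with miR-199-3p and read 48.9 in C4-2 mock RNA and 129 in treated RNA. The medians were 0.19 for the C/D genes on each of these arrays, and 0.14 (miR-125b-1-3p) and 0.34 (miR-140-3p) for the genes with both kinds of box. Among the latter, SCARNA10 read 0.42 for miR-125b-1-3p and 0.59 for miR-140-3p, SCARNA12 read 0.29 and 0.55, SCARNA5 read -0.002 and 0.12, and SCARNA6 read -0.046 and -0.025. SCARNA9L, not classed, was between -0.093 and 0.13. Only 3 genes were of the C/D type and 4 had both boxes, and no difference between classes was tested.

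**Figure D2:**
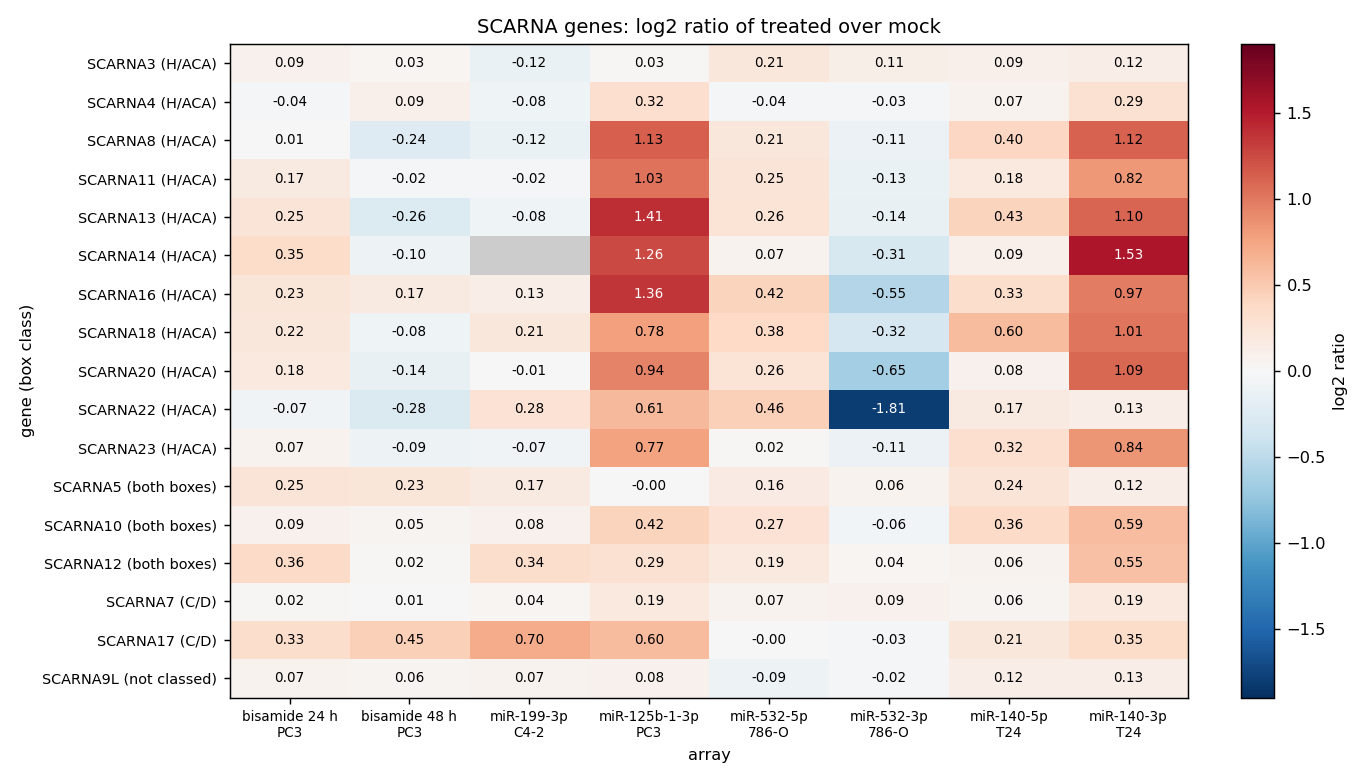
Log2 ratio of treated over mock RNA for the 17 SCARNA genes (rows, with their box class) detected in both channels of 7 or 8 arrays (columns); the grey cell was not detected in both channels. Values near or above 1 lie in the H/ACA rows of the miR-125b-1-3p and miR-140-3p columns, and the single strongly negative cell is SCARNA22 with miR-532-3p at -1.81.

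The SNORA genes shared the high values with miR-140-3p but hardly those with miR-125b-1-3p. With miR-140-3p their median was 0.29, 85 of 87 were above 0, beside 54.6% of all genes, and 8 were above 1.0. With miR-125b-1-3p the median was 0.12, 68 of 89 were above 0, beside 54.4% of all genes, and none was above 1.0. SNORA48, an H/ACA guide from an intron of EIF4A1, gave 0.00089 and 0.057 with bisamide, -0.075 with miR-199-3p in C4-2, 0.50 with miR-125b-1-3p, 0.82 and -0.45 with the 5p and 3p strands of miR-532, and -0.52 and 1.46 with those of miR-140. Its raw signal in T24 was 531 in mock and 2756 with miR-140-3p, and 492 in mock and 540 with miR-140-5p. SNORA62 and SNORA6, both from RPSA, which encodes a small ribosomal subunit protein, read 1.44 and 1.42 with miR-140-3p. On the other 7 arrays SNORA62 lay between -0.24 and 0.28, and SNORA6 between -0.059 and 0.39. Both genes were thus far above their other readings on 1 array. SNORA6 and the genes described next were named after their values were seen. SNORA80E, a neighbour of SCARNA4 in KHDC4, read 1.36 with miR-140-3p and 0.65 with miR-125b-1-3p. SNORA13, from EPB41L4A-AS1, read 1.14 with miR-140-3p and between -0.025 and 0.26 elsewhere. SNORA57, from CSKMT, read 1.12 with miR-140-3p and was the lowest of the group with miR-125b-1-3p at -0.55. SNORA51, from NOP56, and SNORA80A, from URB1, both read 1.01 with miR-140-3p, and with miR-125b-1-3p they read 0.24 and 0.48.

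Across the 105 genes detected on both, the ratios with miR-125b-1-3p and miR-140-3p correlated with Pearson's r = 0.573 and Spearman's rho = 0.573 across genes. Over all 16267 genes the same pair gave r = 0.211. It was the highest r of the group among 23 pairs of arrays from different lines. The lowest was -0.404, between miR-125b-1-3p and miR-532-3p, where all genes gave 0.175. Genes are not independent replicates, and the points share the array design, the dye order and the slide.

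With miR-532 in 786-O the 3p strand gave lower values than the 5p strand. The SNORA median was 0.14 with miR-532-5p and 0.018 with miR-532-3p, and the SCARNA median was 0.21 and -0.091. SCARNA22, an H/ACA guide within NSD2, gave -0.071 and -0.28 with bisamide, 0.28 with miR-199-3p in C4-2, 0.61 with miR-125b-1-3p, 0.46 and -1.81 with the 5p and 3p strands of miR-532, and 0.17 and 0.13 with those of miR-140. Its raw signal in 786-O was 438 in mock and 135 in treated RNA for the 3p strand, against 442 and 559 for the 5p strand. It was the 8th lowest of 15442 genes with miR-532-3p, and no other array gave it a value below -0.28. SNORA67, like SNORA48 from EIF4A1, gave -0.29 and -0.13 with bisamide, -0.12 with miR-199-3p in C4-2, 0.90 with miR-125b-1-3p, 0.91 and -1.05 with the 5p and 3p strands of miR-532, and -0.17 and 0.93 with those of miR-140. Its raw signals in 786-O were 175 in mock and 84.5 in treated RNA for the 3p strand, against 171 and 308 for the 5p strand. SCARNA20 at -0.65, SCARNA16 at -0.55 and SNORA48 at -0.45 were also low with miR-532-3p.

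The 3p minus 5p difference within a line cancels the shared mock, apart from its repeat reading. In 786-O its median was -0.12 over 75 SNORA genes and -0.32 over 17 SCARNA genes, beside -0.013 over all 14847 genes. SCARNA22, at -2.27, was the lowest of all those genes, and SNORA67 differed by -1.96. In T24 the median was 0.095 over 86 SNORA genes, 0.23 over 19 SCARNA genes and 0.64 over the 11 SCARNA genes of the H/ACA type, beside 0.013 over all 16992 genes. There SNORA48 had the largest difference of the group at 1.99, followed by SNORA62 at 1.68, SNORA80E at 1.51 and SNORA6 and SCARNA14 at 1.44 each. SCARNA22 did not share in it, with -0.046. The difference was above 1.0 for 10 genes in T24, beside 0.453% of all genes, and below -1.0 for none, beside 0.23%. In 786-O it was above 1.0 for none, beside 0.451%, and below -1.0 for 3 genes, beside 0.694%, of which SNORA48 was the third at -1.27. The mock signals of these genes were close on the paired arrays, and over the 85 genes detected in every mock the median difference between both readings was 0.05 in 786-O and 0.039 in T24 on the log2 scale.

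**Figure D3:**
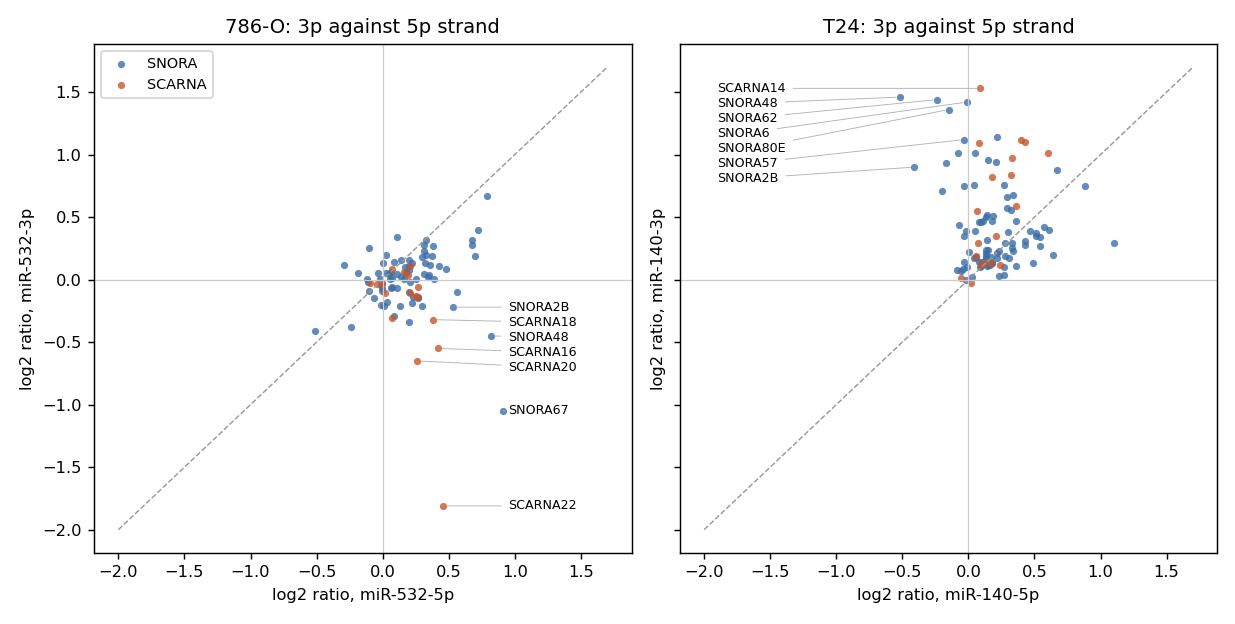
Log2 ratio with the 3p strand (y axis) against that with the 5p strand (x axis) for the genes detected in both channels of both arrays of 786-O (miR-532, left) and T24 (miR-140, right); the dashed line marks equal ratios and the 7 genes farthest from it are named. SCARNA22 and SNORA67 lie far under the line in 786-O, and a column of genes lies over it in T24.

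With bisamide in PC3 no gene was far from 0. The SNORA median was 0.083 after 24 h and 0.072 after 48 h, and the SCARNA median was 0.12 and -0.048. After 24 h the highest were SNORA24, from SNHG8, at 0.43, SCARNA12 at 0.36 and SCARNA14 at 0.35, and the lowest were SNORA2B at -0.31 and SNORA67 at -0.29. After 48 h the highest were SNORA28, from EIF5, at 0.55, SCARNA17 at 0.45 and SNORA27, from RPL21, at 0.36, and the lowest were SNORA79 and SCARNA22 at -0.28 each. With miR-199-3p in C4-2 the SNORA median was 0.072 and the SCARNA median 0.055. SCARNA17 was followed there by SNORA80B at 0.51 and SNORA21 at 0.46, and SNORA31 and SNORA20 were lowest at -0.13 each. With miR-532-5p SNORA67 at 0.91, SNORA48 at 0.82 and SNORA76C at 0.79 were highest, and SNORA61 at -0.51 and SNORA10 at -0.29 were lowest. With miR-532-3p SNORA76C at 0.67, SNORA19 at 0.40 and SNORA25 at 0.34 were highest. With miR-140-5p SNORA76C at 1.10, SNORA21 at 0.88 and SNORA24 at 0.67 were highest, and SNORA48 at -0.52 and SNORA2B at -0.41 were lowest. With miR-140-3p the lowest genes were SCARNA6 at -0.025 and SNORA11 at -0.014. SNORA78 at -0.37 was second lowest with miR-125b-1-3p. Some of these values rest on probes outside the small RNA, as described next.

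Probe choice decided a few of these values. For 26 genes the array had more than 1 probe, and 28 of the 145 probes carried an accession of a longer transcript or a sequence tag in place of the RefSeq entry of the small RNA. Such a probe was the brightest for 5 genes, SNORA10, SNORA75, SNORA76A, SNORA76C and SNORA78. SNORA76C was the clearest case. Its brightest probe, at chr17:62223610-62223669 on the plus strand, read 1.10 with miR-140-5p, 0.79 with miR-532-5p and 0.67 with miR-532-3p. The probe of the small RNA itself, at chr17:62223722-62223781 on the same strand, read 0.094, 0.15 and -0.36 on these arrays. Both are shown here for comparison.
SNORA76C, brightest probe: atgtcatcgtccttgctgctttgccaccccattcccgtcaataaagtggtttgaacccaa
SNORA76C, small RNA: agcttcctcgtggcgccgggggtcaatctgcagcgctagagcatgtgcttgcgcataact
With the small RNA's own probe no gene was above 1.0 with miR-140-5p, and the high values of SNORA76C therefore belong to another stretch of RNA. For the SCARNA and SNORA genes above 1.0 with miR-125b-1-3p or miR-140-3p the brightest probe was that of the small RNA. Of these only SNORA80A had a second probe, which was detected in both channels of no array. SCARNA22 also had a second probe of that kind. Whether a probe ended at the 3′ end of the RNA made little difference to the median. With miR-140-3p it was 0.30 over 52 SNORA and H/ACA SCARNA genes whose probe did, with 7 above 1.0, and 0.38 over 42 genes whose probe did not, with 6 above 1.0. Some probes are nearly the same and cannot tell their genes apart. Those of SNORA5A and SNORA5B matched at 56 of 60 bases, those of SNORA70 and SNORA70D at 55 of 60, and those of SNORA14A and SNORA14B at 54 of 58. No gene above 1.0 had such a partner at 80% identity or more.

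Host genes of the highest small RNAs were not high. By RefSeq accession 116 of the 118 genes were matched, and 112 of these lie within a longer gene. That longer gene was matched to a name on the array for 107 of them. For 17 of the small RNA genes the table used gave no strand of the host. Among the 5 genes above 1.0 with miR-125b-1-3p the hosts were between -0.30 and -0.0032, with SNHG10 at -0.30 where SCARNA13 read 1.41, and SNHG20 at -0.058 where SCARNA16 read 1.36. Among the 11 genes above 1.0 with miR-140-3p whose host was detected, the hosts were between -0.20 and 0.31. EIF4A1 read -0.15 there beside SNORA48 at 1.46, TIPIN 0.17 beside SCARNA14 at 1.53, KHDC4 (KIAA0907 on the array) -0.066 beside SNORA80E at 1.36, and NOP56 -0.20 beside SNORA51 at 1.01. RPSA, the host of SNORA62 and SNORA6, was not analysed here. With miR-532-3p NSD2 (WHSC1 on the array) read 0.13 beside SCARNA22 at -1.81, and EIF4A1 read -0.28 beside SNORA67 at -1.05. Some hosts were low together with their small RNA: CSKMT (METTL12 on the array) read -0.48 with miR-125b-1-3p beside SNORA57 at -0.55. Over all detected pairs, gene and host had the same sign in 38 of 93 for miR-140-3p, 42 of 92 for miR-140-5p, 43 of 99 for miR-125b-1-3p, 33 of 86 for miR-532-5p and 56 of 84 for miR-532-3p. The counts were 56 of 101 and 51 of 99 with bisamide for 24 h and 48 h, and 49 of 83 with miR-199-3p. Median centring, which moved all genes upward on most arrays, gave 98 for miR-125b-1-3p and 92 for miR-140-3p, so these counts depend on the scaling. Several genes share a host, so the pairs are not independent, and sense and host transcripts were told apart only by the position of the probes.

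**Figure D4:**
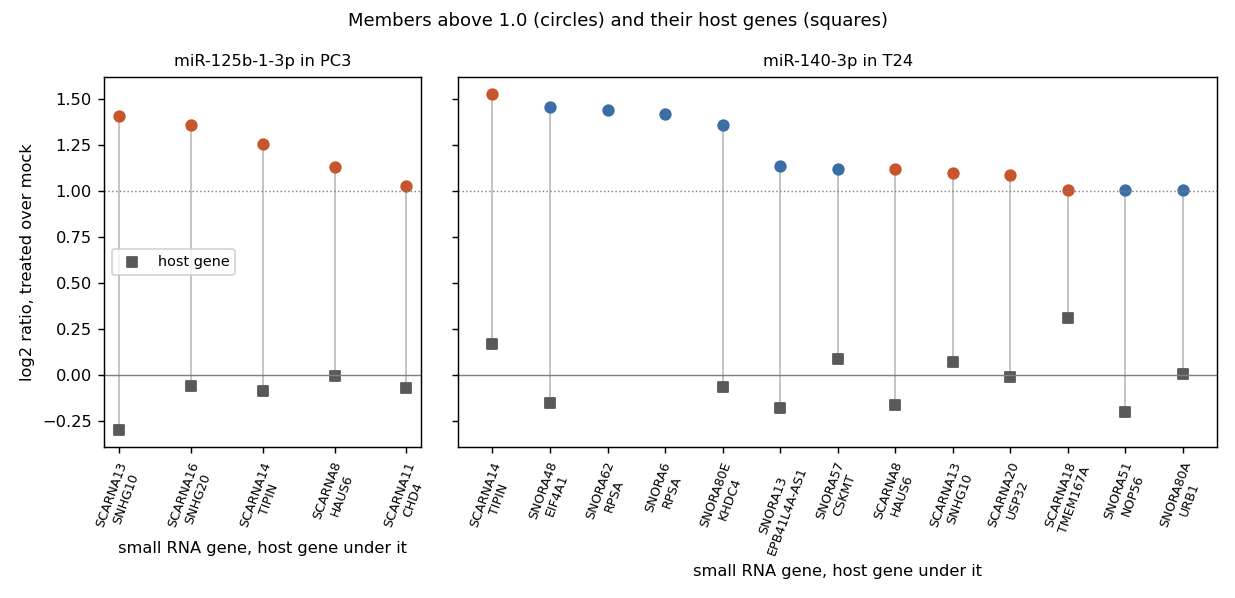
Log2 ratio of treated over mock RNA (y axis) for the small RNA genes above 1.0 (circles, orange for SCARNA and blue for SNORA) and for their host genes (squares), with miR-125b-1-3p in PC3 (left) and miR-140-3p in T24 (right). Host genes stay between -0.30 and 0.31, while the small RNAs reach 1.53; RPSA has no square because it was not analysed here.

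Transcripts that encode the proteins of the H/ACA particle were close to 0 where the small RNAs were high. The proteins themselves were not measured. DKC1, which encodes dyskerin and is itself the host of SNORA36A, read -0.069 for miR-125b-1-3p and -0.022 for miR-140-3p. NOP10 read -0.16 and 0.07, NHP2 0.021 and 0.064, and GAR1 0.016 and -0.073 on these arrays. WRAP53, whose protein carries small Cajal body RNAs to Cajal bodies, read -0.064 and -0.018. Its raw Cy3 signals there were low, at 37.8 and 60.9, and it was detected in both channels of 6 arrays. Of the 22 genes listed for H/ACA particles, their assembly, their trimming and the related C/D particle, 19 to 22 were detected on an array and none was past 1.0 on any. With median centring, where the median of all genes shifted by up to 0.45, 5 were above 1.0 on each T24 array, beside 5.68% and 6.94% of all genes for the 5p and 3p strands. The list's median lay between -0.12 for miR-199-3p and 0.0077 for miR-140-5p. Its lowest readings were NOP56 at -0.95 with miR-532-5p, NOLC1 at -0.72 with miR-199-3p and TERT at -0.69 with miR-532-5p. NHP2, which encodes a core protein, read -0.63 with miR-532-5p. PARN, a deadenylase that trims H/ACA RNAs, read -0.62 with miR-140-3p. DKC1 was lowest of the list with miR-532-3p at -0.57.

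Telomerase RNA, TERC, also carries an H/ACA domain and a Cajal body motif. It gave -0.14 and -0.19 with bisamide, -0.029 with miR-199-3p in C4-2, 0.49 with miR-125b-1-3p, 0.14 and -0.13 with the 5p and 3p strands of miR-532, and 0.24 and 0.34 with those of miR-140. The highest readings of TERC thus fell on the same pair of arrays as those of the H/ACA SCARNA genes. Other RNAs that end without a poly(A) tail did not have this order. RMRP read 0.24 for miR-125b-1-3p and 0.38 for miR-140-3p, and was highest with miR-532-5p at 0.61. RPPH1 read 0.06 and 0.21 and was highest with miR-532-5p at 0.59, and RN7SK read 0.33 and 0.41 and was highest with miR-532-5p at 1.22. Histone genes had a median of 0.052 with miR-125b-1-3p, 0.24 and 0.27 for the 5p and 3p strands of miR-140. The C/D box RNAs of the nucleolus, named SNORD, had a median of 0.011 over 104 detected genes with miR-125b-1-3p and 0.14 over 100 with miR-140-3p, and none was above 1.0 on either. Both the histone and the SNORD median were highest with miR-140-3p and next highest with miR-140-5p, where SNORD gave 0.13. The SNORD median was lowest with miR-125b-1-3p. With miR-140-3p 78 of the 100 SNORD genes and 88.9% of the histone genes were above 0, beside 54.6% of all genes. These RNAs were chosen after the ratios of the group were known, and their part in the result was not tested.

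Mock RNA differed between lines for a small number of the genes. After quantile normalization of the 8 mock channels, 11 of 94 genes were above 1.0 in C4-2 minus PC3, beside 8.86% of all genes, and 3 were below -1.0, beside 8.1%. In 786-O minus PC3 5 of 94 were above, beside 5.73%, and 2 below, beside 4.96%. In T24 minus PC3 5 of 104 were above, beside 4.13%, and 1 was below, beside 4.84%. When each channel was scaled to 1 median instead, 1, 0 and 5 genes were above and 13, 12 and 3 below in the same order, while 2.19%, 1.2% and 2.91% of all genes were above and 30.7%, 33.2% and 9.1% below. Counts by direction therefore depend on the scaling.

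SNORA67, SNORA48 and SNORA2B were higher in T24 mock RNA than in PC3. SNORA67 was at 10.15 and 10.28 on the log2 scale in T24 and between 7.48 and 8.31 on the 3 PC3 arrays, a difference of 2.35, or 2.10 with median scaling. SNORA48 was at 8.86 and 8.92 in T24 and between 6.67 and 6.83 in PC3, a difference of 2.13, or 2.07. SNORA2B, from KANSL2, differed by 1.81, or 1.78. The readings of T24 and PC3 did not overlap in these genes, but the genes were picked for their large difference. The T24 readings were treated as repeats of 1 mock RNA. SNORA61, from SNHG12, was at 9.96 in 786-O and between 7.69 and 8.01 in PC3, a difference of 2.11, or 0.97 with median scaling. SNORA11D, from MAGED4, was lower in 786-O, with a difference of -1.54, and in C4-2, with -1.70, or -2.30 and -2.39 with median scaling. In C4-2 SNORA76C, read by the probe outside the small RNA, was higher by 2.03 and SNORA27 by 1.85, or 1.44 and 0.69 with median scaling. In 786-O SNORA76C was higher by 1.51, or 0.27. The PC3 mocks themselves differed: over 85 genes the median range between the 3 arrays was 0.20, and it was largest in SCARNA22 at 1.04. C4-2 had 1 mock array, so it gives no spread. Without the mock of the bisamide 48 h array 1 gene in place of 2 was below -1.0 in 786-O, and without that of the miR-125b-1-3p array 5 in place of 3 were below in C4-2.

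**Figure D5:**
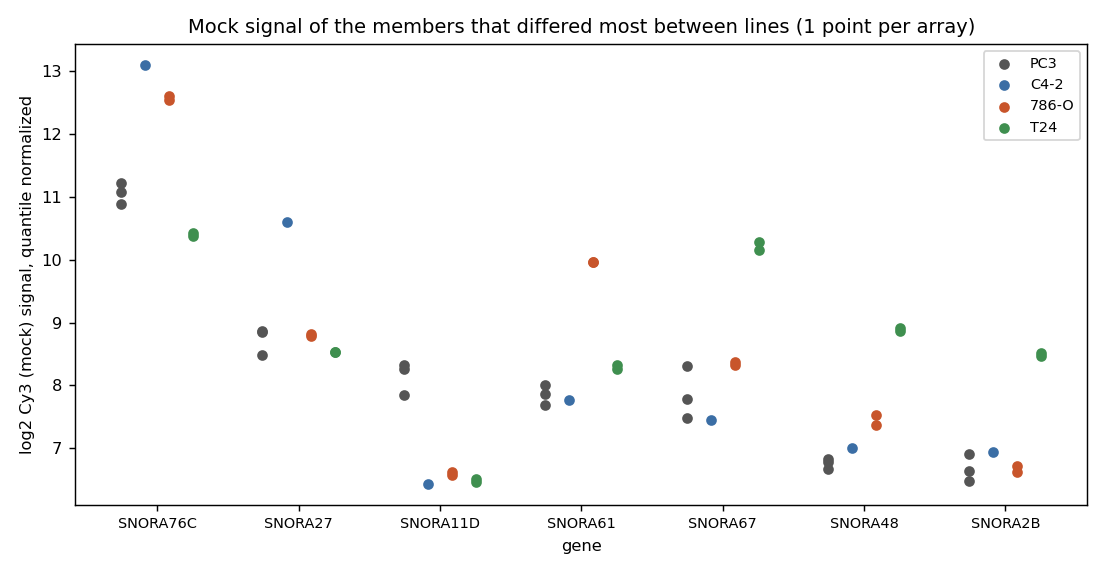
Log2 mock (Cy3) signal after quantile normalization (y axis) of the 7 genes (x axis) that differed most between PC3 and another line; 1 point is 1 array, coloured by line. T24 lies above the other lines in SNORA67, SNORA48 and SNORA2B, 786-O in SNORA61, and C4-2 in SNORA27 and SNORA76C.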

How the data were processed

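The 8 samples were two-colour arrays scanned with Agilent Feature Extraction 11.5.1.1, per the file headers. The deposited files give the intensity of each channel and the authors' processed log10 ratio of Cy5 over Cy3; the deposited series table equals that log10 ratio, with a largest difference of 0. Here the mean intensity was background-corrected (normexp, offset 50) and loess-normalized within each array with limma 3.58.1 in R 4.3.3, and log2 ratios were taken. Control spots and 126 to 181 outlier spots per array were left out of 60901 spots, and spots of 1 probe were averaged, giving 58201 probes. The brightest probe stood for a gene. Mock channels were compared after quantile normalization.

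The members and lists were chosen with earlier results of these data known. Named genes are the 3 highest and 2 lowest of each array, those past 1.0 on 2 arrays or more, the SCARNA genes detected on all 8 arrays, the 3 with the largest mock difference in each comparison of lines, TERC, the core proteins and the hosts of these; other genes past 1.0 on 1 array and further genes were named after their values were seen. RefSeq's GRCh38.p14 table served for names and neighbours only, and a host is a longer gene that contains the small RNA. Background correction and normalization were tested on simulated arrays in which only brighter probes were changed. Changes in dim probes, by which many genes of the group were read, were not covered. All arrays came from 1 slide with 1 array a group and no dye swap, so dye and treatment cannot be told apart, and precision is limited by how few arrays there are. Alternatives were other background corrections, offsets, centring, filters, probes and thresholds.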

Additional observations from a re-analysis of the deposited data

Results flagged for a closer look

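SNORA67 lay on opposite sides of 0 with the strands of miR-532 in 786-O, at 0.91 with miR-532-5p and -1.05 with miR-532-3p, a 3p minus 5p difference of -1.96 on the log2 scale. The difference was not tested, since each strand had 1 array.

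SNORA48 lay on opposite sides of 0 with the strands of miR-140 in T24, at -0.52 for the 5p strand and 1.46 for the 3p strand, a 3p minus 5p difference of 1.99. This difference was not tested either.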

How the results depend on the processing

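No paired analysis was possible because no treatment has more than 1 array. Arrays are named here by line and strand. Counts past a threshold are those of the group alone. The share of all genes is given for some of these settings only, so the other counts cannot be set against the whole array. Of 830 recomputed values 619 stayed within tolerance, which was 0.0527 on the log2 scale for a median and 1.5 times for a count, and 211 moved. No single value past 1.0 changed sign, but 8 of 172 recomputed medians did, 6 of them on subtracting the median of the other 7 arrays and 2 with median centring. Without change of setting those of SNORA were 0.069, 0.059, 0.062 and 0.019 for bisamide 24 h, bisamide 48 h, the C4-2 array and 786-O 3p, and those of SCARNA 0.11 and 0.044 for bisamide 24 h and the C4-2 array. Median centring gave -0.027 for SNORA on 786-O 3p. The cause of each move was not tested. The RefSeq probe and the raw Cy3 minimum were chosen after seeing the data. The deposited series table gave the scanner log ratio's values. Leaving out 1 mock array gave 1 to 2 genes below -1.0 in 786-O minus PC3 and 3 to 5 in C4-2 minus PC3. Low signal over background limits most genes, and an offset of 50 draws dim ratios towards 0. With subtraction of the median of the other 7 arrays, the SNORA median less that of all genes was -0.039, -0.033, -0.0076, 0.008, 0.046, -0.075, 0.064 and 0.18 for bisamide 24 h, bisamide 48 h, the C4-2 array, the PC3 miRNA array, 786-O 5p, 786-O 3p, T24 5p and T24 3p, respectively. For bisamide 24 h, bisamide 48 h, the C4-2 array, the PC3 miRNA array, 786-O 5p, 786-O 3p, T24 5p and T24 3p the SCARNA median less that of all genes was -0.012, -0.17, -0.16, 0.34, 0.023, -0.30, 0.052 and 0.36, respectively. With 786-O 5p and T24 5p the count of genes above the threshold was 1 and 0, respectively. Under it, for 786-O 3p the count of genes below minus the threshold was 1. With no background correction, the SCARNA median less that of all genes was 0.18, 0.11, 0.64, 0.35, -0.18 and 0.60 for bisamide 24 h, the C4-2 array, the PC3 miRNA array, 786-O 5p, 786-O 3p and T24 3p, respectively. For the C4-2 array, 786-O 5p, T24 5p and T24 3p the SNORA median less that of all genes was 0.13, 0.25, 0.21 and 0.37, respectively. With the PC3 miRNA array, 786-O 5p and T24 3p the count of genes above the threshold was 8, 2 and 20, respectively. Under it, for the C4-2 mock and the T24 mock the count of genes below minus the threshold was 5 and 3, respectively. With normexp with an offset of 0, the SCARNA median less that of all genes was 0.19, 0.15, 0.83, 0.46, -0.28, 0.27 and 0.82 for bisamide 24 h, the C4-2 array, the PC3 miRNA array, 786-O 5p, 786-O 3p, T24 5p and T24 3p, respectively. For the C4-2 array, the PC3 miRNA array, 786-O 5p, T24 5p and T24 3p the SNORA median less that of all genes was 0.15, 0.16, 0.42, 0.25 and 0.47, respectively. With the C4-2 array, the PC3 miRNA array, 786-O 5p, T24 3p, the C4-2 mock, the 786-O mock and the T24 mock the count of genes above the threshold was 1, 8, 6, 25, 31, 11 and 11, respectively. Under it, for 786-O 3p, the C4-2 mock, the 786-O mock and the T24 mock the count of genes below minus the threshold was 4, 9, 4 and 5, respectively. On 786-O the median 3p minus 5p difference of SNORA less that of all genes was -0.25. For 786-O and T24 the median 3p minus 5p difference of SCARNA less that of all genes was -0.67 and 0.43, respectively. With median centring in place of loess, the SCARNA median less that of all genes was 0.014, -0.12, -0.077, 0.43 and -0.17 for bisamide 24 h, bisamide 48 h, the C4-2 array, the PC3 miRNA array and 786-O 3p, respectively. For bisamide 24 h, bisamide 48 h, the C4-2 array, the PC3 miRNA array, 786-O 3p, T24 5p and T24 3p the count of genes above the threshold was 2, 4, 5, 15, 1, 8 and 35, respectively. Of all genes 4.27%, 5.68% and 6.94% were above it for the PC3 miRNA array, T24 5p and T24 3p, respectively. With the PC3 miRNA array the SNORA median less that of all genes was 0.047. Under it, for 786-O 3p the count of genes below minus the threshold was 1. On T24 the median 3p minus 5p difference of SCARNA less that of all genes was 0.28. For bisamide 24 h, bisamide 48 h, the C4-2 array, the PC3 miRNA array, T24 5p and T24 3p the count of pairs with a host of the same sign was 96, 93, 77, 98, 88 and 92, respectively. With bisamide 24 h, the C4-2 array, the PC3 miRNA array, T24 5p and T24 3p the count of particle genes above it was 2, 1, 1, 5 and 5, respectively. Under it, for 786-O 5p the count of particle genes below minus it was 1. With scanner log ratio, the SCARNA median less that of all genes was 0.19, -0.16, 0.18, 0.91, 0.52, -0.36, 0.31 and 1.02 for bisamide 24 h, bisamide 48 h, the C4-2 array, the PC3 miRNA array, 786-O 5p, 786-O 3p, T24 5p and T24 3p, respectively. For the C4-2 array, the PC3 miRNA array, 786-O 5p, 786-O 3p, T24 5p and T24 3p the SNORA median less that of all genes was 0.16, 0.17, 0.46, 0.091, 0.29 and 0.54, respectively. With the C4-2 array, the PC3 miRNA array, 786-O 5p, T24 5p and T24 3p the count of genes above the threshold was 1, 9, 10, 2 and 28, respectively. Under it, for 786-O 3p the count of genes below minus the threshold was 6. On 786-O and T24 the median 3p minus 5p difference of SNORA less that of all genes was -0.27 and 0.17, respectively. For 786-O and T24 the median 3p minus 5p difference of SCARNA less that of all genes was -0.82 and 0.41, respectively. With the C4-2 array and 786-O 5p the count of particle genes below minus it was 1 and 1, respectively. Under it, for 786-O 5p the count of particle genes above it was 1. With threshold 0.5, the count of genes above the threshold was 1, 2, 18, 9, 1, 11 and 34 for bisamide 48 h, the C4-2 array, the PC3 miRNA array, 786-O 5p, 786-O 3p, T24 5p and T24 3p, respectively. For the PC3 miRNA array, 786-O 5p, 786-O 3p and T24 5p the count of genes below minus the threshold was 1, 1, 4 and 1, respectively. With the C4-2 array, 786-O 5p, 786-O 3p and T24 3p the count of particle genes below minus it was 1, 4, 1 and 1, respectively. With all members, no filter, the SCARNA median less that of all genes was 0.42 and 0.35 for the PC3 miRNA array and T24 3p, respectively. With mean over the probes of a gene, the SCARNA median less that of all genes was 0.29, 0.11 and 0.33 for the PC3 miRNA array, T24 5p and T24 3p, respectively. For 786-O 3p the count of genes below minus the threshold was 1. With T24 5p the count of genes above the threshold was 0. With raw Cy3 of 100 or more, the count of genes above the threshold was 2 for the PC3 miRNA array. With threshold 1.5, the count of genes above the threshold was 0, 0, 1, 2, 2 and 3 for the PC3 miRNA array, T24 5p, T24 3p, the C4-2 mock, the 786-O mock and the T24 mock, respectively. For 786-O 3p and the 786-O mock the count of genes below minus the threshold was 1 and 1, respectively. With at least 1 channel in place of both, the SCARNA median less that of all genes was 0.10 and 0.32 for T24 5p and T24 3p, respectively. With RefSeq NR probe in place of the brightest, the count of genes above the threshold was 0 for T24 5p. With median scaling in place of quantile, the count of genes above the threshold was 1 and 0 for the C4-2 mock and the 786-O mock, respectively. For the C4-2 mock, the 786-O mock and the T24 mock the count of genes below minus the threshold was 13, 12 and 3, respectively.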
